A study of Mus musculus with 9 samples.

Results

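H3K27ac was examined at 10 genes that set whether a resting T cell leaves G1, among 22367 protein-coding genes of the mm9 annotation. The genes were chosen by name and not by a measured value, though with earlier results of these data known. They are the D-type cyclins Ccnd1, Ccnd2 and Ccnd3, their kinases Cdk4 and Cdk6, the Cip/Kip inhibitors Cdkn1a and Cdkn1b, and the INK4 inhibitors Cdkn2a, Cdkn2c and Cdkn2d. H3K27ac marks active enhancers and promoters by acetylation of histone H3, and was measured by ChIP-seq. The cells were naive CD8+ T cells, sorted from spleens of young adult C57BL/6 mice of both sexes. The WT group (hCD2-Cre+ Rosa26GFP Tcf7+/+ Lef1+/+) held 4 samples and the dKO group (hCD2-Cre+ Rosa26GFP Tcf7fl/fl Lef1fl/fl) held 3, with 1 input sample each. Both groups carried the Cre transgene, whose activity peaks in peripheral T cells, and the GFP reporter, which marks cells in which Cre acted. In both groups the sort took GFP+ TCRbeta+ CD62Lhi CD44lo-med CD8+ cells. Each genotype was deposited as a list of enriched islands called on its pooled replicates, so every value below is 1 per genotype, no difference has a replicate check, and the 95% Wilson intervals cover counting error only. A bulk library cannot tell fewer acetylated alleles or cells from less acetylation on each.

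D-type cyclins bind CDK4 or CDK6, and the complex phosphorylates the retinoblastoma protein, which releases E2F factors and lets a cell pass from G1 into S phase. INK4 proteins bind CDK4 and CDK6 and keep them from the cyclin, whereas the Cip/Kip proteins p21 and p27 bind cyclin-CDK complexes and inhibit CDK2 in particular. Naive T cells rest outside the cycle with high p27, and antigen stimulation induces D-type cyclins and removes p27.

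For each gene, islands that touched the stretch from 50 kb upstream of the transcription start site (TSS) to the end of the gene were summed. The WT list held 82668007 counts over 392.7 Mb of islands and the dKO list 57665047 counts over 429.3 Mb, or 210.5 and 134.3 counts per kb. Counts were therefore divided by the total of their list before the log2 ratio of dKO to WT was taken. A sum over islands rises with the length called, so the covered length and the counts per kb of island stand beside each sum. A gene was called changed where the ratio, of counts or of counts per kb of island, reached 1.5 in either direction. In a check of cell type markers, islands lay over the TSS of 7 of 7 naive CD8+ T cell markers (Cd3e, Cd8a, Cd8b1, Ccr7, Il7r, Tcf7 and Lef1) in both lists. The targeted genes were among them, with 50113 counts in WT and 18207 in dKO over the Tcf7 TSS and 53027 and 11100 over the Lef1 TSS, which does not report on the deletion itself. The same held for 3 of 3 B cell markers, of which Cd79a had 12334 counts in WT and 7414 in dKO and Ms4a1 had 431 and 329. It also held for 3 of 3 myeloid markers, with 580 to 839 counts in WT and 178 to 697 in dKO, for 1 of 3 erythroid markers and for 1 of 2 NK cell markers. Gata1, Hbb-b1 and Ncr1 had none in either list. An island within 1 kb of the TSS in both lists was found for 58.5% of protein-coding genes, so presence alone does not identify the cells. Counts of the marker check were not scaled. The part of other cells in the values below was not tested.

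Of the 10 genes, 9 had islands in both lists, and 2 of these 9 were called changed by counts. Cdkn1a, which encodes p21, rose in dKO cells, and Ccnd1 fell. Among the 16487 genes of the annotation with islands in both lists, 11.5% were called higher and 11.5% lower by counts, 22.9% in either direction, so 2 of 9 is close to the share of all genes. The median log2 ratio was 0.06 over the 9 genes and -0.03 over all genes. Per kb of island, 0 of the 9 genes were called, against 0.425% of all genes higher and 9.28% lower, or 9.7% in either direction, and the medians were -0.19 and -0.16. By counts, 5 of the 9 genes lay above 0 and 4 below, beside 7822 above and 8665 below among the 16487 genes.

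**Figure D1:**
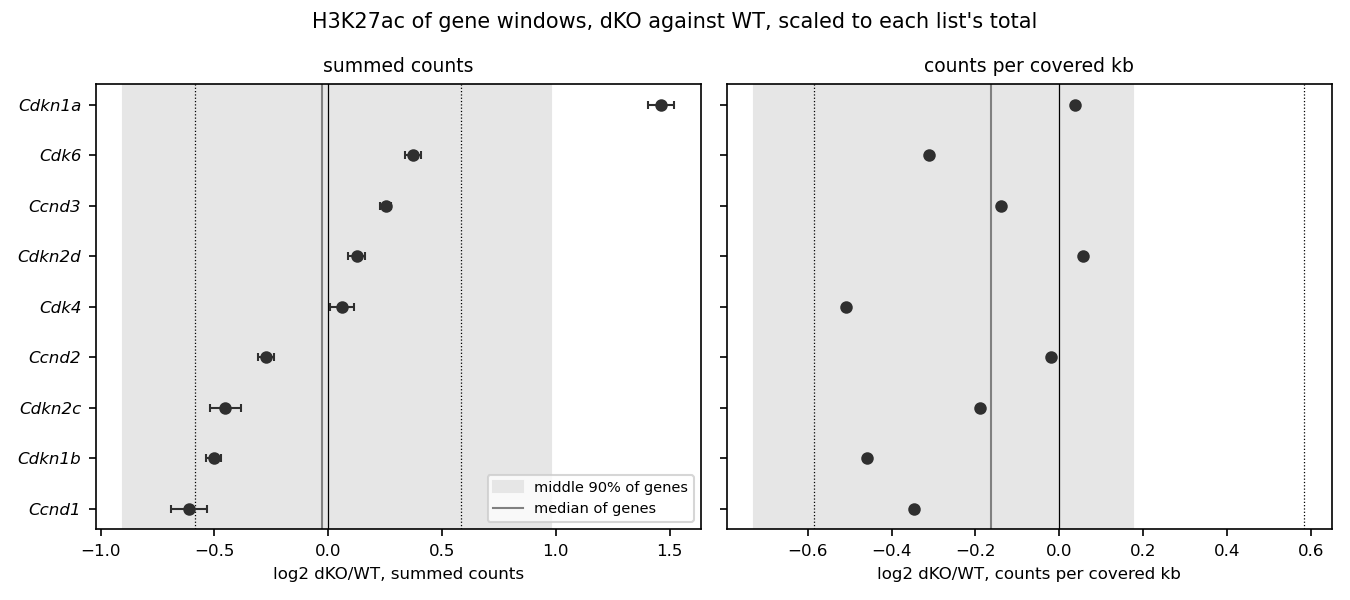
Log2 ratio of dKO to WT for the 9 genes with islands in both lists, by summed counts (left, with 95% Wilson intervals for counting error) and per kb of island (right), each scaled to the total of its list. Grey bands hold the middle 90% of 16487 protein-coding genes and dotted lines mark a ratio of 1.5. By counts Cdkn1a (1.46) lies outside the band, whereas per kb all 9 points lie inside it.

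The D-type cyclin genes differed from each other. Ccnd1 (mm9 chromosome 7, 152115836 to 152125774, minus strand), the D-type cyclin that lymphocytes use least, had no island over its TSS in either list. Its islands lay far upstream. In WT, 2 islands held 4190 counts across 25 kb, and in dKO 5 islands held 1913 counts across 20.8 kb. The log2 ratio of counts was -0.61 (95% interval -0.69 to -0.53), and that of counts per kb of island, called the ratio per kb from here on, was -0.35. The largest WT island, with 3318 counts from -53.8 to -35.4 kb of the TSS, faced several narrower dKO islands, and a dKO island from -18.0 to -15.2 kb with 211 counts had no WT counterpart. The interval includes the size at which a gene was called (0.58). The call was lost when islands were cut at the border of the stretch (-0.53), when 50 kb on both sides of the gene were taken (-0.44), when counts were scaled to regions common to both lists (-0.54) and over bases covered in both lists (-0.36). The gene lies in a 140 kb stretch (152080001 to 152220000) that the study listed as a hub with stronger Hi-C contacts in dKO cells. Islands there held 9423 counts across 52.6 kb in WT and 4594 counts across 43.4 kb in dKO, for a log2 ratio of -0.52 by counts and -0.24 per kb.

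Ccnd2 (chromosome 6, 127075797 to 127101066, minus strand), a D-type cyclin of lymphocytes, was covered broadly in both genotypes. In WT, 4 islands held 16867 counts across 81 kb, and in dKO 7 islands held 9737 counts across 68 kb. The log2 ratio was -0.27 (-0.31 to -0.24) by counts and -0.02 per kb, neither of which was called. The count ratio rested on a border, since the widest WT island was summed whole past the end of the stretch. It was -0.04 with islands cut there and -0.08 with merged regions. The island over the TSS kept its borders almost exactly, at 10.2 kb in WT and 10.4 kb in dKO, with 4995 and 2842 counts. Its log2 ratio was -0.29 (-0.36 to -0.23) by counts and -0.32 per kb. Upstream of it, a single WT island of 59.2 kb with 9936 counts stood against several dKO islands that together had nearly the same depth relative to the list (log2 ratio of counts per kb 0.05 over the merged region).

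Ccnd3 (chromosome 17, 47642000 to 47736632, plus strand), the D-type cyclin that expanding thymocytes need, had the most counts of the 10 genes. In WT, 8 islands held 32979 counts across 122.2 kb, and in dKO 11 islands held 27390 counts across 160.2 kb. The log2 ratio was 0.25 (0.23 to 0.27) by counts and -0.14 per kb. The annotation gives it TSSs 88.4 kb apart, and they did not go together. At the upstream TSS an island of 36.4 kb in WT and 36.6 kb in dKO, which also covers the Taf8 TSS, held 15476 and 9652 counts (log2 ratio -0.16, -0.20 to -0.12). At the downstream TSS the WT island of 14 kb held 5455 counts and the dKO island of 28.8 kb held 6434 (0.76, 0.71 to 0.81). Per kb that TSS had -0.28, and the merged region around it, which takes in a further WT island and the TSSs of Bysl and Med20, had 0.01 by counts. Between them, 2 stretches inside the gene held dKO islands alone, of 16.4 kb with 1530 counts and of 2.2 kb with 228 counts. The ratio of the whole gene was below 0 within 5 kb of the TSS (-0.16) and over bases covered in both lists (-0.08).

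**Figure D2:**
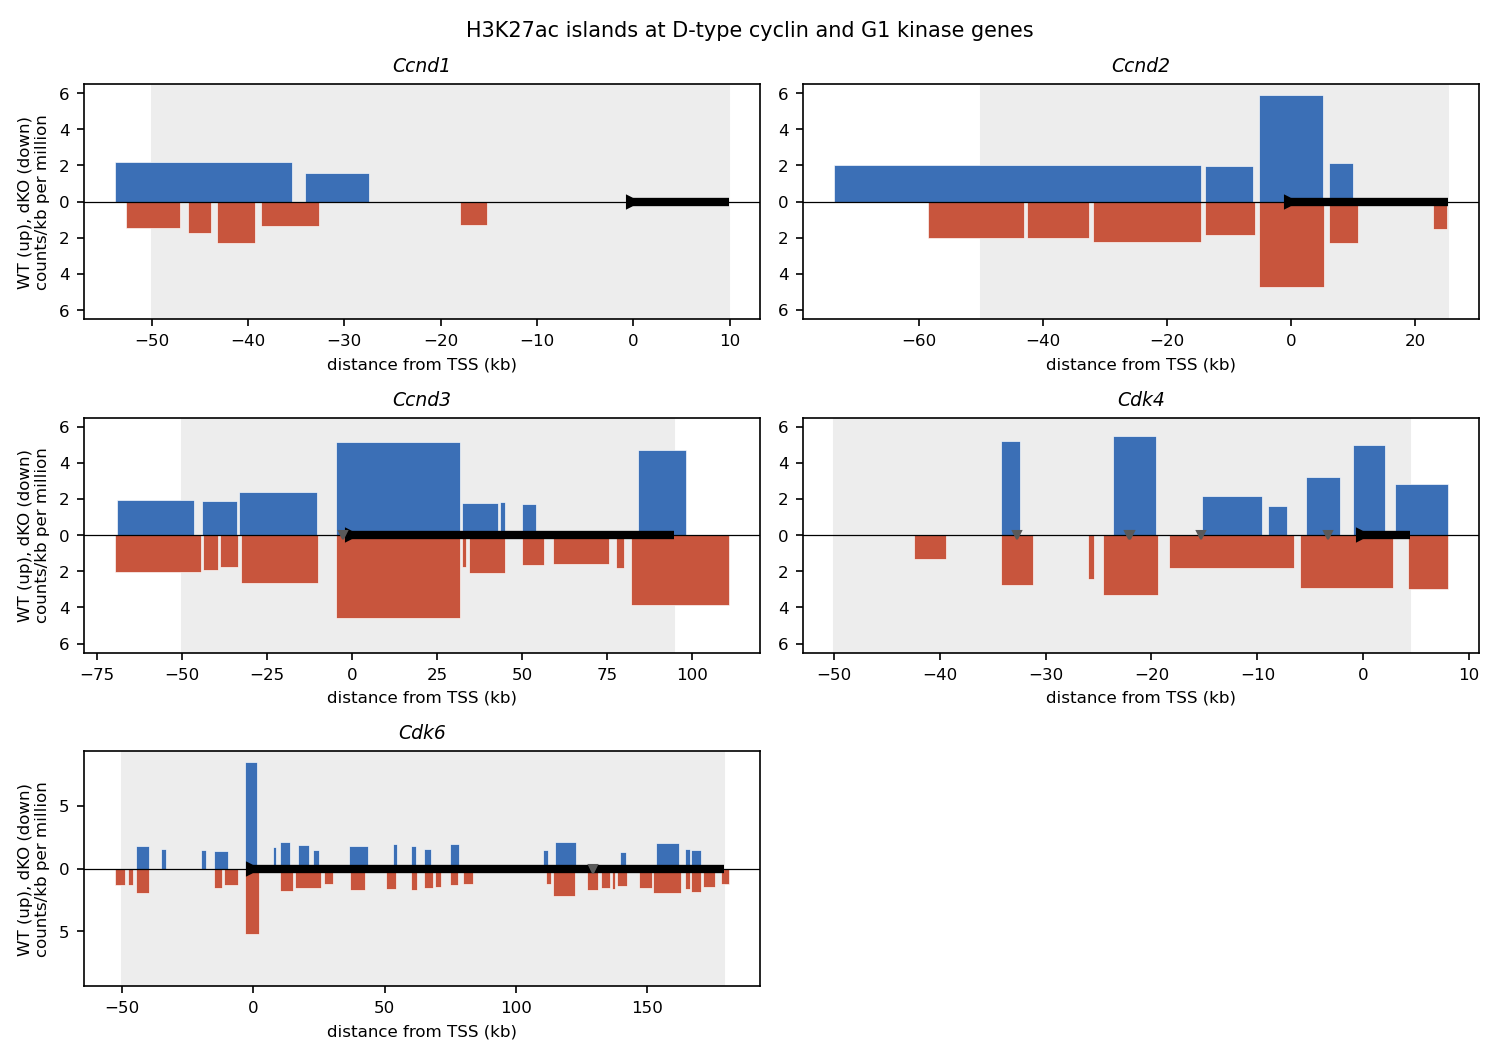
Islands of WT (blue, upward) and dKO (red, downward) at the D-type cyclin and G1 kinase genes, by distance from the TSS in kb, with height in counts per kb of island per 1000000 island counts of the list. The black bar with an arrowhead is the gene, small triangles are TSSs of other protein-coding genes and grey is the stretch that was summed. Ccnd1 has no island at its TSS, and at Cdk6 the WT promoter island is the tallest (8.51 against 5.23 in dKO) while dKO islands are more numerous (28 against 20).

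Both G1 kinase genes had more covered length and less depth in dKO cells, and each of these was common over all genes. Of 16487 genes, 10728 had more covered length in dKO and 13085 had fewer counts per kb after scaling. Cdk4 (chromosome 10, 126500590 to 126504976, plus strand), the CDK4 kinase gene, lies among closely packed genes. In WT, 7 islands held 7081 counts across 24.4 kb, and in dKO 7 islands held 5147 counts across 36.2 kb. The log2 ratio was 0.06 (0.01 to 0.11) by counts and -0.51 per kb. At the TSS the WT island spanned 3 kb with 1240 counts and the dKO island 8.8 kb with 1491 counts, for a log2 count ratio of 0.79 (0.68 to 0.89) and a log2 ratio per kb of -0.77, so that it was called higher by the first measure and lower by the second. The dKO island also covered the March9 TSS, 3.4 kb upstream, which had an island of its own in WT. When both WT islands were summed the log2 ratio was 0.03 by counts and -0.47 per kb. Islands over the TSSs of Tsfm (-0.19 by counts, -0.93 per kb) and of Mettl1 and Fam119b (-0.34 and -0.72) lay in the same stretch. With 50 kb on both sides of Cdk4 the ratio was 1.46, a called increase, and over bases covered in both lists it was -0.43.

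The bases before the Cdk4 TSS are shown because this was the only promoter of the 8 genes searched that held the TCF/LEF letters, the core bound by the factors that dKO cells lack. Capitals mark these letters (CTTTGAT or CTTTGAA, read on either strand) and the E-box CACGTG, the core that Myc binds.
Cdk4, chr10:126500340-126500589, plus strand: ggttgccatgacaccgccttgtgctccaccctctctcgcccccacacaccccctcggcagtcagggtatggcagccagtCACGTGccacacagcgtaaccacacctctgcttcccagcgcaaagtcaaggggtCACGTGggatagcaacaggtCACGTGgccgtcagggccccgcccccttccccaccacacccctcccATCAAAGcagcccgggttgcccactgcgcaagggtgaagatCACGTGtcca
From 250 bases before to 50 after the TSS, Cdk4 held 1 TCF/LEF match at -51 to -45, on the opposite strand, and 4 E-boxes starting at -171, -117, -97 and -10, with the TSS as base 0. The TCF/LEF letters were found in 1790 of 22367 promoters of this length and the E-box in 7.78%.

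Cdk6 (chromosome 5, 3343893 to 3523218, plus strand), whose kinase acts in the same step as CDK4 and is abundant in T cells, showed a split between promoter and gene body. In WT, 20 islands held 13526 counts across 74 kb, and in dKO 28 islands held 12199 counts across 118.6 kb. The log2 ratio was 0.37 (0.34 to 0.41) by counts and -0.31 per kb. The island over the TSS was the deepest of the 10 genes' promoter islands in WT, with 3236 counts across 4.6 kb, and held 1690 counts across 5.6 kb in dKO. Its log2 ratio was -0.42 (-0.50 to -0.33) by counts and -0.70 per kb, the latter a called decrease. Away from the promoter, islands held 10290 counts across 69.4 kb in WT and 10509 counts across 113 kb in dKO (0.55, 0.51 to 0.59, by counts and -0.15 per kb). Of 30 merged regions of the gene, 16 had islands in both lists, 3 in WT alone and 11 in dKO alone. Of all 76633 regions, 59.1% had islands in both lists, 12.8% in WT alone and 28.1% in dKO alone. The 11 dKO-only regions of Cdk6 were shallow, at 110 to 440 counts each. Within 5 kb of the TSS the gene's log2 ratio was thus -0.42, and over bases covered in both lists -0.20.

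The Cdk6 promoter is shown as that with the deepest WT island. Its single E-box, at -220, is in capitals.
Cdk6, chr5:3343643-3343892, plus strand: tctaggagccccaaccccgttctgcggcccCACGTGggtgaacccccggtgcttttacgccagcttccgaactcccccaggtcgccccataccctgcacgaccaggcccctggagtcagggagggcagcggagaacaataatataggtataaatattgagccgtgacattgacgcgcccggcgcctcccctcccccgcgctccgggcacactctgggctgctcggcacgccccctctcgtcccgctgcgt

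Of the Cip/Kip inhibitor genes, Cdkn1a rose in dKO cells and Cdkn1b had a count ratio below 0 that was not called. Cdkn1a (chromosome 17, 29227924 to 29237667, plus strand) encodes p21, a target of p53 that inhibits cyclin-CDK complexes. In WT, 5 islands held 3849 counts across 19.6 kb, and in dKO 4 islands held 7398 counts across 52.6 kb. After scaling, the dKO count was 2.76 times that of WT, which is a log2 ratio of 1.46 (1.41 to 1.52), at percentile 98.0 of all genes. Per kb the log2 ratio was 0.04, so that the called difference lay in covered length. Islands covered 32.8% of the stretch in WT and 86.8% in dKO, a change of 54.0 percentage points that lay at percentile 99.8 of all genes, whose median change was 3.89 points.

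Islands were wider in dKO in each region of the Cdkn1a stretch. A dKO island from -47.3 to -36.1 kb (1128 counts) had no WT counterpart. From -35.5 to -10.9 kb a single dKO island of 24.6 kb with 2863 counts stood where WT had 2 islands with 1325 counts across 9.2 kb, for a log2 count ratio of 1.63 (1.54 to 1.73) and a log2 ratio per kb of 0.21. The next region, to -5.3 kb, had 458 counts across 2.2 kb in WT and 747 counts across 4.8 kb in dKO (1.23 and 0.10). Over the gene itself, WT had an island of 3.4 kb with 377 counts at the upstream TSS and a deeper one of 4.8 kb with 1689 counts at the TSS 2.8 kb downstream, whereas dKO had a single island of 12 kb with 2660 counts across all 3 annotated TSSs. Taken as a merged region this gave a log2 count ratio of 0.88 (0.80 to 0.97) and a log2 ratio per kb of 0.33. Against the single WT island, the upstream TSS had 3.34 by counts and 1.52 per kb and the next TSS 1.17 and -0.15, values that depend on the joining of islands in dKO. The TSS 7.2 kb downstream had no WT island.

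The increase kept its sign in 12 of 12 other settings and was called in 11 of them. With 50 kb on both sides of the gene the log2 ratio was 0.67. Over bases covered in both lists it was 0.19 and not called. The gene lies in a super enhancer, a cluster of enhancers with high H3K27ac, that the study listed as stronger in dKO cells. That list was chosen on these samples and is not independent evidence. In that 1091.6 kb stretch (28728801 to 29820399) islands held 147919 counts across 680.4 kb in WT and 139650 counts across 946.4 kb in dKO, for a log2 ratio of 0.44 by counts and -0.04 per kb.

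The bases before the first 2 Cdkn1a TSSs are shown because the islands over them differed most by counts between the genotypes. From 250 bases before to 50 after the TSS, the upstream promoter (TSS 1) held 2 CpG dinucleotides and 54.7% G and C, and the downstream one (TSS 2), over which the deeper WT island lay, held 23 and 65.0%.
Cdkn1a TSS 1, chr17:29227674-29227923, plus strand: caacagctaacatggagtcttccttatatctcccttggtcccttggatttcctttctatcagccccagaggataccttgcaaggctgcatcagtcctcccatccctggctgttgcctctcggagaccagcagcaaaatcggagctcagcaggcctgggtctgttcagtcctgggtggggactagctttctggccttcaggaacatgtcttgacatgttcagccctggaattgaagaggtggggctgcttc
Cdkn1a TSS 2, chr17:29230467-29230716, plus strand: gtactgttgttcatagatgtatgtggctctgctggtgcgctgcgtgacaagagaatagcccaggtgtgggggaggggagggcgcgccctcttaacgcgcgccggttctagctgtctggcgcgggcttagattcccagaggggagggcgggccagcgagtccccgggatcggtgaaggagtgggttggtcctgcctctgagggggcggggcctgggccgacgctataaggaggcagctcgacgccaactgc
Neither held the TCF/LEF, FOXO (GTAAACA), E2F (TTCCCGC or TTGGCGC) or E-box letters on either strand. The third TSS had 1 FOXO match at bases 5 to 11, and FOXO letters were found in 3.11% of promoters. Across all islands of Cdkn1a, TCF/LEF letters occurred 0.255 times per kb in WT and 0.228 times in dKO, against 0.404 and 0.394 over all islands of the lists. The Cdkn1a values rest on 5 matches in WT and 12 in dKO. Among the other genes searched, the WT value ran from 0.328 at Cdkn2d to 0.5 at Cdkn2a (1 match). The dKO value ran from 0.331 at Cdk4 to 0.472 at Cdk6.

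Cdkn1b (chromosome 6, 134870419 to 134875531, plus strand) encodes p27, which holds naive T cells in quiescence. In WT, 5 islands held 22838 counts across 58.4 kb, and in dKO 5 islands held 11242 counts across 56.6 kb. The log2 ratio was -0.50 (-0.54 to -0.47) by counts and -0.46 per kb, neither of which was called, although it was called lower by counts in 4 of 12 other settings. The value rested on a border. A WT island from 5.0 to 17.2 kb of the TSS with 5249 counts just reached the end of the gene, and the dKO islands there began beyond it. With merged regions the gene had 3 regions, with log2 ratios of 0.22 far upstream, -0.23 around the TSS and -0.18 downstream, and with 50 kb on both sides of the gene the ratio was 0.02. Without the regions that also cover the TSS of another gene, here Gpr19, it was -1.87, but that setting also leaves out the promoter of Cdkn1b itself. At the TSS itself the WT island spanned 17.6 kb with 9534 counts and the dKO island 10.8 kb with 4962 counts, for a log2 count ratio of -0.42 (-0.47 to -0.37) and a log2 ratio per kb of 0.28. This too rested on where islands were split, since the merged region over the TSS held 42.6 kb of WT islands and 44 kb of dKO islands, with a log2 ratio per kb of -0.28.

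The Cdkn1b promoter is shown for comparison with those of Cdkn1a. It held 30 CpG dinucleotides and 62.0% G and C, and no match to the 4 motifs.
Cdkn1b, chr6:134870169-134870418, plus strand: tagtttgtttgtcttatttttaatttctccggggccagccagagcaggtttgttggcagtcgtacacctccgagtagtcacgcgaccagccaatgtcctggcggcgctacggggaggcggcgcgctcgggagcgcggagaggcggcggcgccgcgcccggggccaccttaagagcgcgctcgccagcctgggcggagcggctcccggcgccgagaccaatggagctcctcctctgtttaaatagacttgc

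**Figure D3:**
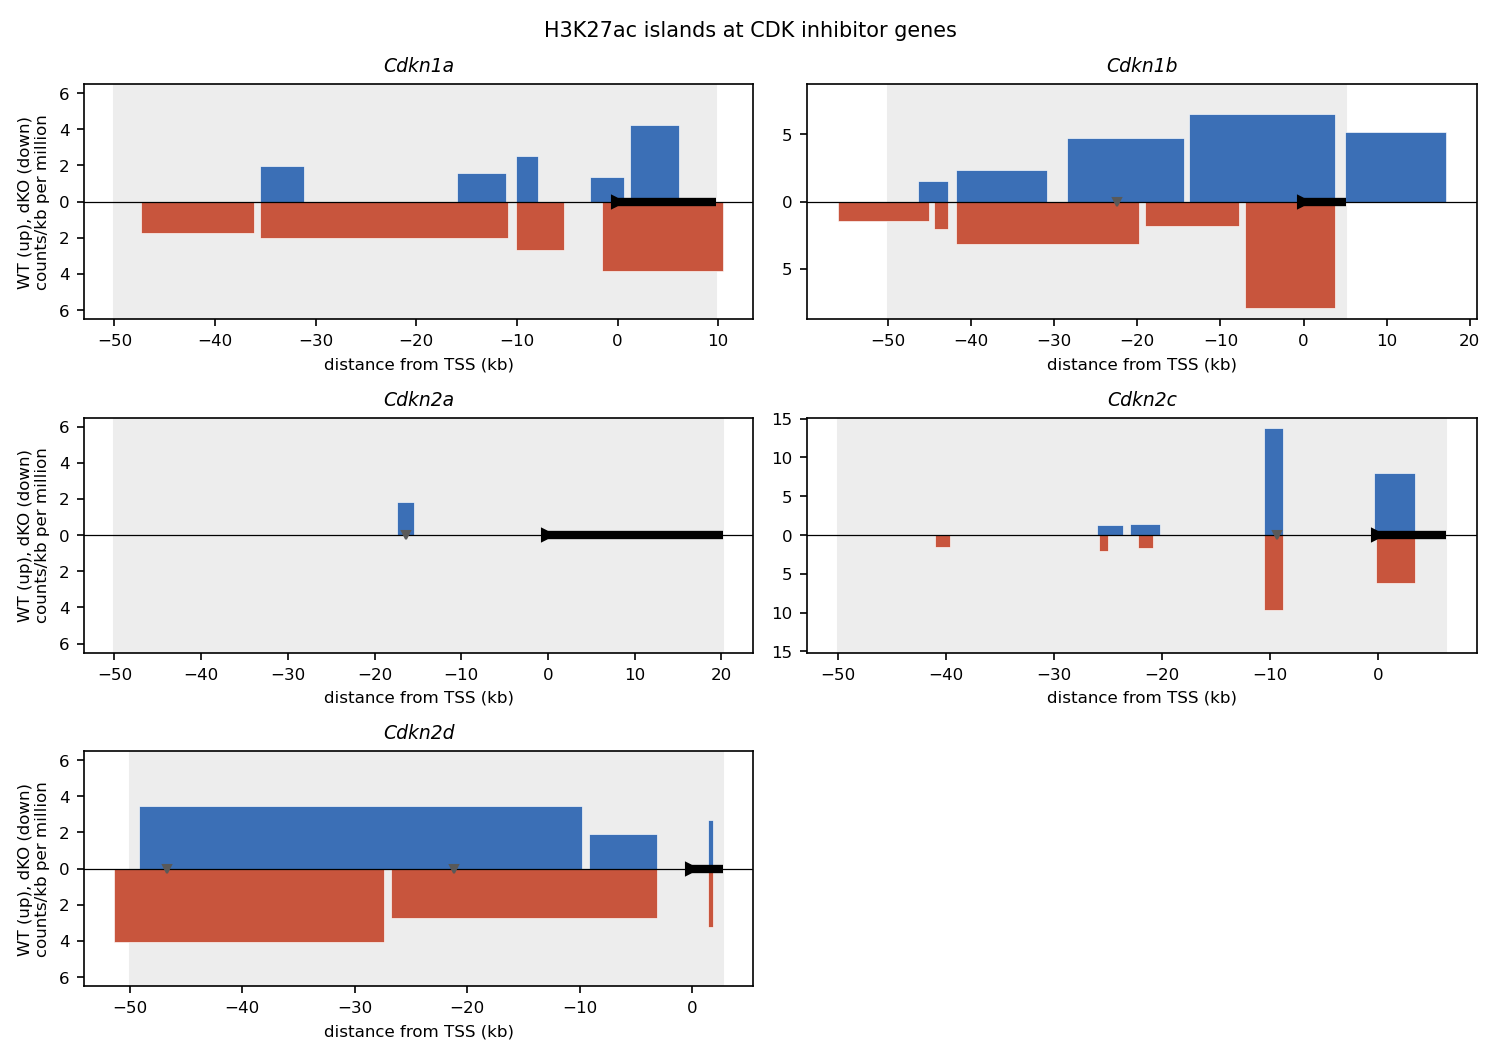
Islands of WT (blue, upward) and dKO (red, downward) at the CDK inhibitor genes, by distance from the TSS in kb, with height in counts per kb of island per 1000000 island counts of the list. The black bar with an arrowhead is the gene, small triangles are TSSs of other protein-coding genes and grey is the stretch that was summed. At Cdkn1a the dKO islands fill most of the stretch (86.8% against 32.8% in WT), and at Cdkn2a the sole island is a WT island upstream.

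The INK4 genes ranged from nearly no H3K27ac to the highest counts per kb of island of the 10 genes. Cdkn2a (chromosome 4, 88920377 to 88940557, minus strand), which encodes p16 and the p53 activator Arf, had no island over either TSS or in the gene body in either list. Its sole island, in WT, held 301 counts across 2 kb from -17.4 to -15.4 kb and lay over the TSS of Cdkn2b, the neighbouring INK4 gene. The dKO list had no island there, so no ratio is given. The smallest dKO island of any width held 43 counts, but dKO islands of the same 2 kb width at Cdk6 held 149 and 146. The size of the difference at this site is therefore not known. Promoters with no island in either list made up 36.2% of protein-coding genes.

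Cdkn2c (chromosome 4, 109333481 to 109339794, minus strand), which encodes p18, had few islands, and the deep ones lay over promoters. In WT, 4 islands held 5142 counts across 10.8 kb, and in dKO 5 islands held 2621 counts across 9 kb. That was 476 counts per kb in WT and 291 in dKO, at percentiles 96.1 and 98.0 of all genes. The log2 ratio was -0.45 (-0.52 to -0.38) by counts and -0.19 per kb. The island over its TSSs held 2527 counts across 3.8 kb in WT and 1276 counts across 3.6 kb in dKO (-0.47, -0.56 to -0.37, and -0.39). The deepest island, of 1.8 kb in both genotypes, lay over the TSS of the neighbouring gene Faf1, with 2049 counts in WT and 996 in dKO (-0.52 by both measures). The remaining islands were shallower than their list, at 114 and 103 counts per kb in WT (210.5 over the list). In dKO they had 93, 120 and 88 counts per kb (134.3 over the list). In 12 of 12 other settings the ratio of Cdkn2c stayed between -0.51 and -0.38.

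Cdkn2d (chromosome 9, 21092907 to 21095653, minus strand), which encodes p19, had no island over its TSS in either list. A 0.4 kb island inside the gene held 88 counts in WT and 74 in dKO. The rest of its signal lay upstream, across Ap1m2 and Slc44a2. In total, 3 islands held 12374 counts across 45.8 kb in WT and 3 islands held 9411 counts across 48 kb in dKO, for a log2 count ratio of 0.12 (0.09 to 0.16) and a log2 ratio per kb of 0.06. The same upstream stretch was divided differently in the lists. WT had an island of 39.4 kb with 11334 counts and one of 6 kb with 952, and dKO had islands of 24 kb with 5646 counts and of 23.6 kb with 3691. The gene's ratio therefore ran from -1.20 with 10 kb upstream to 1.97 within 5 kb of the TSS.

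Promoter islands were then compared across the genes. An island within 1 kb of the most upstream TSS was found in both lists for 7 of the 10 genes, all but Ccnd1, Cdkn2a and Cdkn2d. By counts, 2 of these 7 were called higher (Cdk4 and Cdkn1a) and 0 lower, against 12.2% higher and 21.1% lower of 13090 genes, or 33.3% in either direction. Per kb, 1 was called higher (Cdkn1a) and 2 lower (Cdk4 and Cdk6), against 2.6% higher and 17.8% lower, or 20.4% in either direction. The medians of the 7 genes were -0.29 by counts and -0.32 per kb, and those of all genes -0.26 and -0.20. Depth relative to the list was lower in dKO at 5 of the 7 promoters, the exceptions being Cdkn1a at its upstream TSS and Cdkn1b. It was also lower at 9333 of the 13090 promoters, a similar share. With merged regions over the TSS, Cdkn1b had -0.28 per kb. By that measure 1 of the 7, Cdkn1a, lay above 0, as did 22.1% of 12235 genes.

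**Figure D4:**
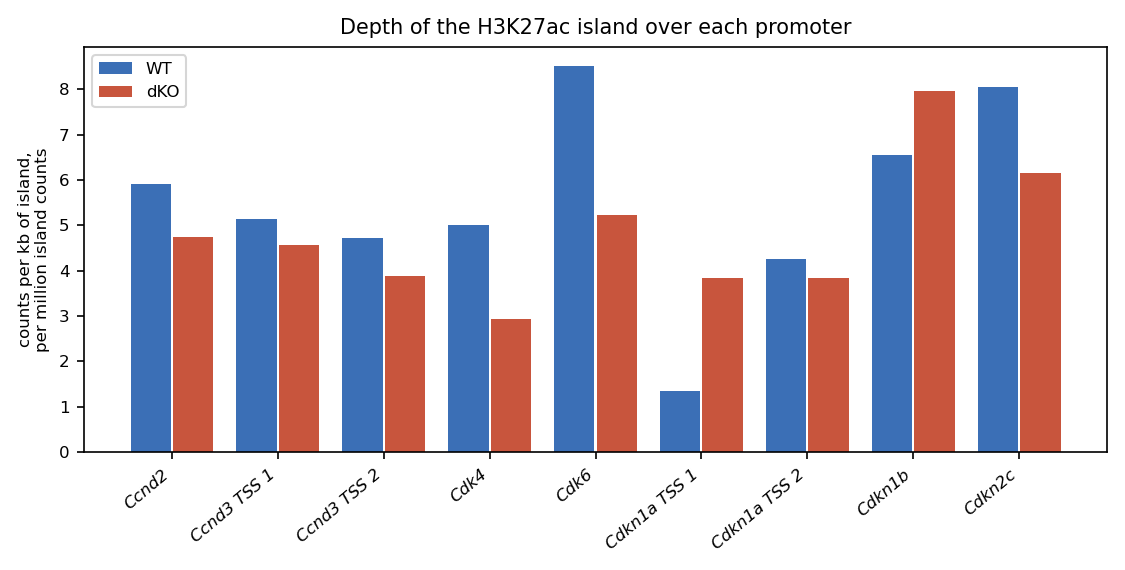
Depth of the island over each TSS in WT (blue) and dKO (red), in counts per kb of island per 1000000 island counts of the list, for the TSSs with an island in both lists. No error bars are drawn, since each bar is 1 pooled list. Cdk6 (8.51 in WT, 5.23 in dKO) and Cdkn2c (8.04 and 6.15) are lower in dKO, and Cdkn1b (6.55 and 7.97) and Cdkn1a TSS 1 (1.34 and 3.84) are higher.

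Merged regions that hold the TSS were also set against the other regions of the same gene. The count ratio was higher away from the promoter than at it in 7 of 7 genes, as it was in 70.1% of 12235 genes. Per kb this held for 5 of 7 genes and 60.0% of all genes. The difference was 1.05 on the log2 scale at Cdkn1a and 0.97 at Cdk6, where the promoter had 0.88 and -0.42 and the rest 1.93 (1.85 to 2.01) and 0.55. Per kb the difference was -0.24 at Cdkn1a, the opposite direction, and 0.55 at Cdk6. At Cdk4 and Cdkn2c the difference was 0.04 and 0.03 by counts, and -0.05 and 0.32 per kb. A promoter below 0 with the rest above 0 was seen at 3 of 7 genes, Ccnd3 (-0.16 and 0.26), Cdk6 and Ccnd2, and at 37.4% of all genes. At Ccnd2 the rest had 0.0041 (-0.036 to 0.045), which was not distinguishable from 0 at this depth.

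The covered share of the summed stretch was higher in dKO by 17.0 percentage points at Ccnd3, 21.7 at Cdk4 and 17.5 at Cdk6, besides the 54.0 at Cdkn1a. The difference, dKO minus WT, was -5.01 points at Ccnd1, -3.20 at Cdkn2c and -2.85 at Cdkn2a. Ccnd2, Cdkn1b and Cdkn2d were covered over at least 76.1% of their stretch in both genotypes. The 10 genes had 68 merged regions in all. Of these, 66.2% had islands in both lists, 5.88% in WT alone and 27.9% in dKO alone, beside 59.1%, 12.8% and 28.1% of all 76633 regions.

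**Figure D5:**
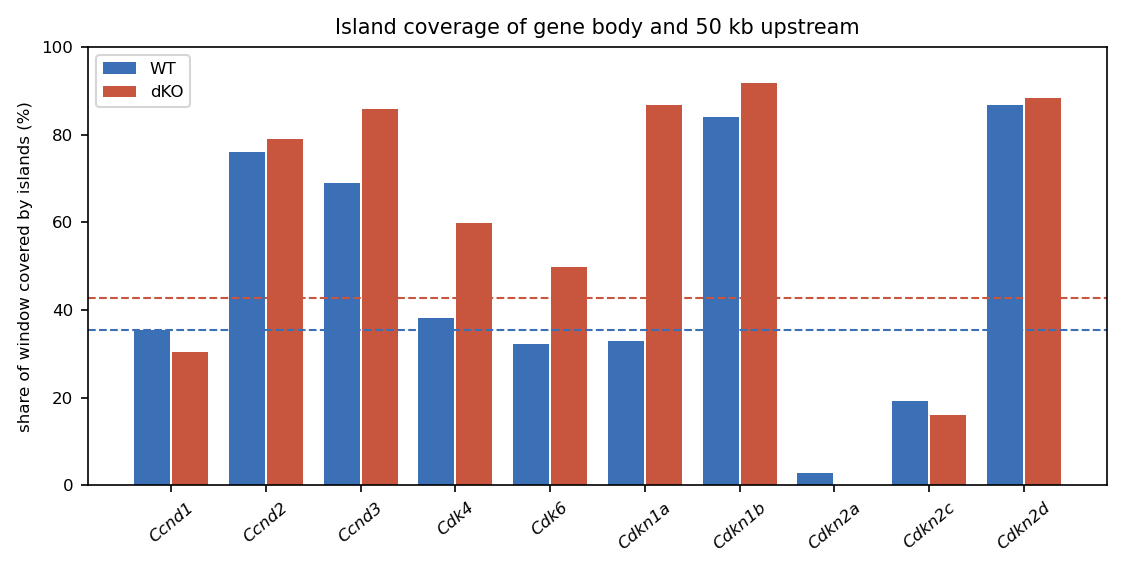
Share of the stretch from 50 kb upstream of the TSS to the end of the gene that islands covered in WT (blue) and dKO (red), in percent. Dashed lines are the medians over the 16487 genes with islands in both lists (35.4% in WT, 42.7% in dKO). Cdkn1a goes from 32.8% to 86.8%, and Cdkn2a has 2.85% in WT and no island in dKO.

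Neighbouring islands were stitched, at the distance that the ROSE tool uses by default, to see how far the domain around each gene reached. The Cdkn1a domain was 163.8 kb long in WT, at rank 867 by counts among 14376 domains, and 1091.6 kb in dKO, at rank 6 among 12919. The dKO domain had the length and the dKO counts (139650) of the super enhancer that the study listed, so it is not a separate result. Within that super enhancer WT islands held 147919 counts across 680.4 kb, for a log2 ratio of 0.44 by counts and -0.04 per kb. Ranks of the lists depend on which other islands were joined. Domains were also longer in dKO at Cdkn2d (105 kb and 721.2 kb), Cdk4 (49 kb and 299.6 kb) and Ccnd3 (127.4 kb and 273.8 kb). They were of similar length at Ccnd2 (456.6 kb and 493.8 kb) and Cdkn1b (502.2 kb and 545.6 kb). At Cdk6 the domain was 98.4 kb in both lists and at Cdkn2c 36.8 kb and 36.6 kb. The length ratio was 6.87 for Cdkn2d and 6.66 for Cdkn1a, at percentiles 91.3 and 90.9 of 13339 genes whose median was 1.32, and 6.11 for Cdk4. The longest domains hold many other genes, so their counts are not those of the named gene alone.

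Letters of the other promoters were searched in the same way, in 8 of the 10 genes. Ccnd1 and Ccnd2 are not in the RefSeq promoter table used here. Ccnd3 had a FOXO match at -243 of its upstream TSS, Cdkn2a an E2F match at -64 of its upstream TSS and Cdkn2c an E-box at 34 of its downstream TSS. The E2F letters were found in 8.16% of all promoters. Cdkn2d had no match. A match describes the sequence and is not a measure of binding.

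Other genes of the cycle were read beside these 10. Of 58 such genes, 57 had islands in both lists. By counts 3 were called higher and 5 lower, and per kb 0 were higher and 8 lower, with medians of -0.05 and -0.17. Over all genes these shares were 11.5% and 11.5% by counts and 0.425% and 9.28% per kb. Values that follow are count ratios, with the ratio per kb after each called gene. Among the G1/S cyclins, kinases and phosphatase, 2 of 8 were higher and 2 lower by counts. Mnat1 (0.84, -0.19 per kb), a subunit of the CDK-activating kinase, and Cdc25a (0.81, -0.59 per kb), a phosphatase that activates CDKs, were higher by counts, and per kb 2 of 8 were called lower, Cdc25a and the kinase gene Cdk2 (-0.76). Ccna2 (-0.97, -0.55 per kb), the S-phase cyclin, and Cdk7 (-0.75, 0.01 per kb), the CDK-activating kinase, were lower by counts. Among pocket proteins and E2F factors 1 of 13 was called by counts, the repressor E2f7, which was higher by counts (0.67) and lower per kb (-0.72). Per kb 2 of 13 were called lower, E2f7 and E2f6 (-0.95), and Rb1 had 0.13 by counts. Of 11 mitotic genes, Top2a was called lower by counts (-1.77, -0.90 per kb), in a neighbourhood that it shares with Ccr7. It had 61270 counts across 175 kb in WT and 12544 counts across 95.8 kb in dKO. The Ccr7 islands of the marker check held 55234 counts across 134.6 kb in WT and 17223 counts across 76.6 kb in dKO. In dKO that is more than the Top2a sum, so those islands were not all part of it. How far the Top2a ratio rests on a border was not tested. Of 3 proto-oncogene factors Myc was lower by counts (-0.59, -0.08 per kb), and of 9 antiproliferative and quiescence factors Btg1 was lower as well (-0.70, -0.35 per kb), with Tob2 (-1.01) the sole gene of that list called lower per kb. In the p53 arm, which acts through p21, 0 of 3 were called by either measure, with Trp53 at 0.32, Mdm2 at 0.00 and Mdm4 at -0.28. The genes for turnover of D-type cyclins and inhibitors had 0 of 8 called by counts, from -0.32 to 0.39, and 2 of 8 lower per kb, Skp2 (-0.77) and Fbxo4 (-0.60). Among the other CDK inhibitors 0 of 2 with a ratio were called by either measure, Cdkn1c at 0.48 and Cdkn3 at -0.11.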

How the data were processed

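H3K27ac ChIP-seq of WT (4 samples) and dKO (3 samples) naive CD8+ T cells was used. Per the labels and the study's methods, the authors checked reads with FastQC, aligned them to mm9 with Bowtie2 2.2.5, kept uniquely mapped reads with MAPQ above 10, pooled the replicates of each genotype and called islands with SICER 1.1 (window 200 bp, gap 400 bp, FDR 0.01). The 2 deposited lists give whole-number read counts per island, not scaled for depth or width. Removal of duplicate reads is not given in the sources used here. Input samples carry no values of their own. Stretches without an island have no count, and scaling to the island total levels out enrichment as well as depth. Reads carried no molecular identifiers, so intervals treat PCR copies as separate molecules.

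Genes and TSSs came from GENCODE vM1 on NCBIM37, which is mm9, and sequences from that genome. For each gene, islands sharing at least 1 bp with the gene body and 50 kb upstream were summed whole, scaled by the list total and compared as log2 of dKO to WT, with 95% Wilson intervals. Merged regions joined overlapping islands of both lists. Domains joined islands at the default ROSE distance and were ranked by counts, without input subtraction. Positions of the study's listed super enhancers and hubs were used, and none of their values. The RefSeq promoter table served only to say which genes were searched for motifs.

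The 10 genes and the companion lists were chosen with earlier results of these data known. All 10 were named, as were companion genes called by counts and other genes whose TSS lay in an island of a summed stretch; companion values of Cdk2, E2f6, Skp2, Fbxo4, Tob2, Rb1, Trp53, Mdm2, Mdm4, Cdkn1c and Cdkn3 were added after they were seen. No genes of similar pattern were named, since 1 value per genotype gives no measure of likeness. Of the marker genes listed, 1 is not reported here. No p-value was computed. Alternatives changed the island filter, the stretch, the treatment of borders and neighbours, the bases compared, the scaling and the ratio called. The steps were checked on simulated data. Python 3.11.15, numpy 2.4.6, pandas 2.3.3 and matplotlib 3.10.9 were used.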

Additional observations from a re-analysis of the deposited data

How the results depend on the processing

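The median count ratio of the 9 genes, 0.06 on the log2 scale, was close to 0 and did not keep its sign. It was -0.0010 with 10 kb upstream, -0.23 within 5 kb of the TSS, -0.0017 without regions over the TSS of another gene and -0.20 over bases covered in both lists. It was 0.28 for the gene body alone, 0.10 with 50 kb on both sides and 0.13 when scaled to common regions. The median by counts per kb, -0.19, stayed below 0. It was -0.32 for the gene body, -0.31 with 10 kb upstream and -0.14 with islands of at least 100 counts. It was -0.054 without regions over another TSS, -0.12 when scaled to common regions and -0.026 when scaled to the median gene. For the gene body, with 10 kb upstream and within 5 kb of the TSS, Ccnd1 had no ratio and 8 genes remained. Without regions over another TSS, Cdk4 had none and 8 genes remained. Medians and calls in these settings therefore cover a smaller set of genes. The number of genes called by counts, 2, was 1 at a ratio of 2, 5 at a lower ratio (0.32 on the log2 scale), 1 with islands cut at the border, 1 when scaled to common regions and 0 over bases covered in both lists. It was 3 with 10 kb upstream (1 higher, 2 lower), within 5 kb of the TSS (2 higher, 1 lower) and without regions over another TSS (1 higher, 2 lower), and with 50 kb on both sides the 2 called were both higher. Of all genes, 4.82% were higher and 3.88% lower at a ratio of 2, and 21.4% and 24.2% at the lower ratio. With 10 kb upstream these shares were 14.8% and 13.4%, and within 5 kb of the TSS 13.2% and 17.1%. They were 19.98% and 12.3% without regions over another TSS, and 7.99% and 10.1% with 50 kb on both sides. With islands cut at the border they were 8.27% and 9.71%, and when scaled to common regions 13.4% and 9.195%. Over bases covered in both lists they were 0.275% and 5.25%. The number called by counts per kb, 0, was 3 at the lower ratio, 1 within 5 kb of the TSS, 1 with islands cut at the border and 1 without regions over another TSS, each of them lower. Of all genes, 27.4%, 16.4%, 9.44% and 7.43% were lower per kb in these settings. Ccnd1, Ccnd2, Cdkn1a and Cdkn2c kept the sign of their count ratio in every setting that gave a value, and the other genes did not. The cause of these differences was not tested. No paired analysis was possible because the replicates of each genotype are pooled in the deposited lists, and for the same reason no replicate could be left out. Depth limits the shallow islands most, and an island missing from a list may lie below the threshold of the caller.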
